A study of Mus musculus with 16 samples.

Results

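The heart's upper chambers were compared between day 3 and day 1 after an infarct of the left ventricle. The comparison takes 8 of the 16 arrays of the study, 4 from day 1 (numbered 11 to 14) and 4 from day 3 (numbered 31 to 34), and covers the 30141 genes whose array rows carry a single gene symbol. All mice were wild-type C57BL/6 males, operated on at 10 weeks of age by tying the left anterior descending artery, which supplies much of the left ventricle, and RNA came from atrial tissue. The other 8 arrays, 4 from sham-operated mice and 4 from day 7, took no part in the tests reported here, other than in the alternatives that add them to the model, and their levels are given only as a description. When the sham mice were sampled is not stated by the labels. The labels name 4 tissue samples per group and do not say whether atria were pooled, so p-values measure only the spread between these samples.

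After an infarct, dying muscle sets off an inflammatory phase in which neutrophils arrive first, followed by monocytes that become macrophages and clear debris. A proliferative phase follows, in which macrophages, endothelial cells and fibroblasts divide and fibroblasts lay down collagen. The atria are not the target of this ligation, but they share the circulation and the pericardial space with the injured ventricle, and are stretched when the ventricle fails. The comparison of day 3 with day 1 addresses how atrial expression moves between these early phases.

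The tissue carried atrial markers. Nppa, which encodes atrial natriuretic peptide, lay at the highest value of the array on all 8 arrays, from 19.80 to 19.93 on the log2 scale of the deposited signal. Myl7, the atrial myosin light chain, lay between 10.23 and 16.53 and was lowest on day 3 array 31 and day 1 array 12. Myl2, the ventricular myosin light chain, lay between 8.27 and 9.0. Other members of the ventricular list were higher, with Myl3 at 14.14 to 16.15 and Lbh at 12.15 to 14.17. The 6 tested ventricular markers averaged 9.59 to 10.57 on the 8 arrays, beside 9.56 to 11.70 for the 15 tested atrial markers. Of the 9 lung and airway markers searched, such as Sftpc, 8 had a row with a single symbol and 0 reached the level needed for testing. Of 7 thymus and lymph node genes 6 had such a row and 1 reached that level. Of 18 lymphocyte and natural killer cell genes 15 had such a row and 2 reached that level.

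Signal quality was uneven across arrays. Control separation, the chance that a positive control row outranks a negative one, was 0.743 on array 31 against 0.816 to 0.825 on the other day 3 arrays, and 0.755 on array 13 against 0.793 to 0.804 on the other day 1 arrays. Over all 8 arrays the difference between the groups was within their spread, at 0.802 ± 0.039 (SD, n = 4) on day 3 and 0.787 ± 0.022 on day 1 (exact two-sided permutation p = 0.486, where the smallest possible is 0.0286). Array 31 had a median correlation of 0.954 with the other day 3 arrays and 0.973 with the day 1 arrays, whereas every other array of these groups had at least 0.987 with its own group. Array 31 therefore goes against its label by this measure; it is named by its label throughout, and whether the label or the sample is at fault was not tested. Results are therefore given with all 8 arrays and again with 6 arrays, without arrays 31 and 13 (n = 3 per group). Without those arrays the control separation of the groups no longer overlaps, and its part in the results was not tested.

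With all 8 arrays, 232 of 17546 tested genes differed between the days (limma with Benjamini-Hochberg adjustment, adjusted p under 0.05), which is 1.32% of the genes. Of these, 187 were higher on day 3 (1.07%) and 45 lower (0.256%). With 6 arrays 4603 genes differed (26.2%), 2537 of them higher (14.5%) and 2066 lower (11.8%). All 232 genes were called in the same direction with 6 arrays, and for all 232 the 4 values of one day lay apart from the 4 of the other. Such a gap was seen for 1819 genes, 10.4% of those tested. Of the 187 rises 44 were near-identical copies of 5S ribosomal RNA, which are not separate genes, and 271 of the 2066 falls with 6 arrays were olfactory or vomeronasal receptors or members of 3 repeated microRNA families. The counts depend on single arrays: without array 31 the 8-array test called 4024 genes, without array 12 it called 11, and without any one of the other 6 arrays it called 0, with between 1779 and 2191 genes at an unadjusted p under 0.05. When any array but 31 was left out, the 8-array count of each gene list described here came to 0, or at most 1 for proteases, wall stress and endothelial genes. Centring each array on its median turned the 6-array split from 55.1% of calls higher to 45.1%, with 4912 calls, so the balance of rises and falls over all genes has no firm direction.

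**Figure D1:**
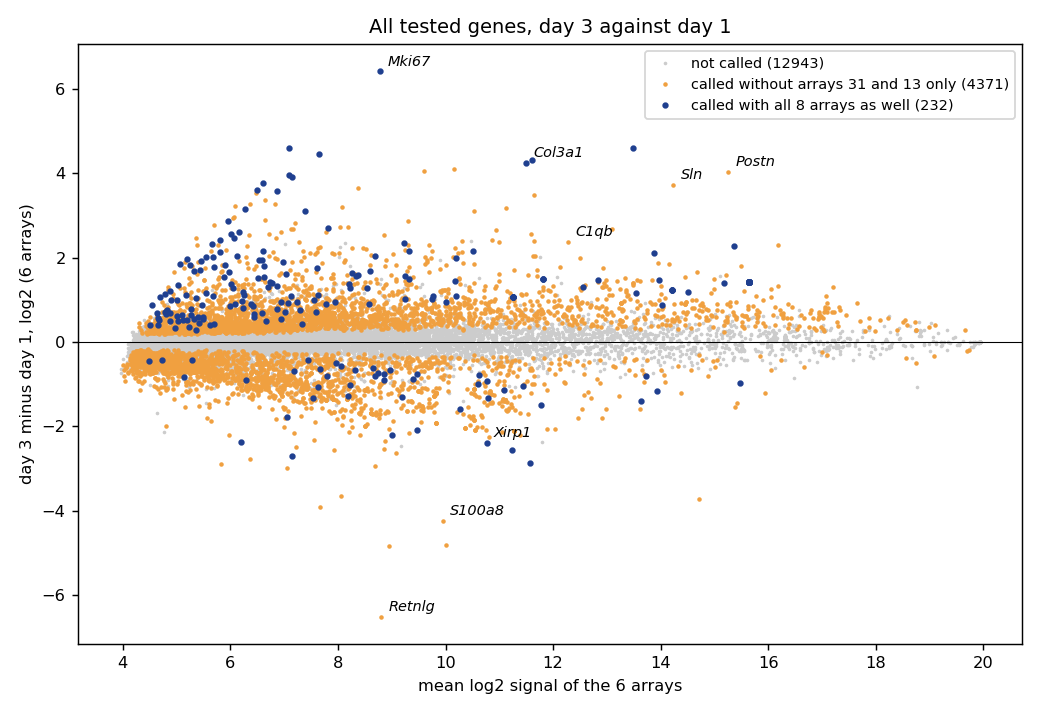
Difference between day 3 and day 1 with 6 arrays (log2, vertical axis) against the mean log2 signal of each tested gene (horizontal axis), coloured by whether the gene was called with both sets of arrays, with 6 arrays only, or with neither. The 232 genes called with both lie mostly above 0, 187 of them higher on day 3 and 45 lower.

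The genes with the largest rises were those of dividing cells and of collagen. Among the 12 largest rises called with both sets of arrays, 8 belonged to the list of mitosis and spindle genes, 2 were collagens and 2 were histone genes. The proliferation marker Mki67 led them. Also among them were the histones Hist1h2aj and H2ac10, the kinesin Kif11, which pushes spindle poles apart, topoisomerase Top2a, which untangles replicated DNA, and Col3a1, the chain of type III collagen. The 12 largest falls held the muscle gene Klhl41 and the stretch-responsive muscle genes Xirp1 and Ankrd2. They also held the neutrophil-attracting chemokine gene Cxcl3, the neutrophil marker Lcn2, and the interleukin 1 blocker Il1rn. Adjusted p-values of these 24 genes ran from 0.0161 to 0.0493 with 8 arrays and from 7.94e-06 to 0.0111 with 6 arrays.

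**Figure D2:**
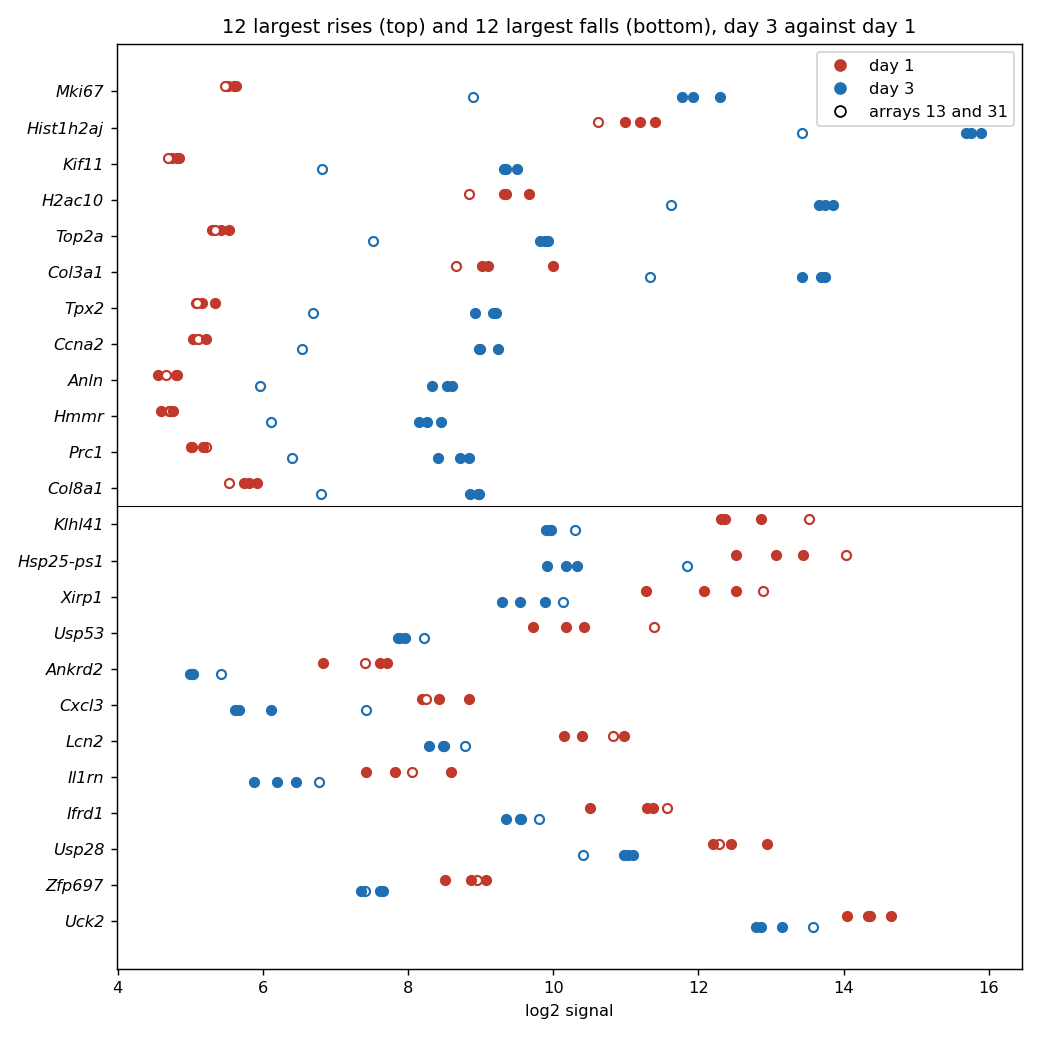
Log2 signal on each day 1 and day 3 array for the 12 largest rises and the 12 largest falls called with both sets of arrays. These genes were chosen so that the 4 values of one day lie apart from the 4 values of the other. Array 31 is the day 3 value closest to day 1 for most rises, such as Mki67 at 8.89 against 11.77 to 12.30.

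Genes of late cell division are known to share promoter elements, the CCAAT box bound by NF-Y and the cell cycle genes homology region bound by the MuvB complex, while many DNA replication genes carry E2F sites. The 250 bases before the start of 4 mitotic genes that the results turn on are shown here 5′ to 3′ from RefSeq (GRCm38.p6), with capitals marking CCAAT and the homology region letters TTTGAA or TTTAAA on either strand. Mki67 and Top2a are among the largest rises, Kif11 shares with Top2a the smallest adjusted p with 6 arrays among them, and Ccnb2 is a mitotic cyclin that passed only with 6 arrays.
Mki67 (chr7:135716380-135716629, minus strand): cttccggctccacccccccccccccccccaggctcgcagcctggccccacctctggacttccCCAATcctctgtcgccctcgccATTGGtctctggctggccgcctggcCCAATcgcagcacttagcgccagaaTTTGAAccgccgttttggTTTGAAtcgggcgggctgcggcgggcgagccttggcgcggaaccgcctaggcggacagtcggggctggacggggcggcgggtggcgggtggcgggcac
Top2a (chr11:99024190-99024439, minus strand): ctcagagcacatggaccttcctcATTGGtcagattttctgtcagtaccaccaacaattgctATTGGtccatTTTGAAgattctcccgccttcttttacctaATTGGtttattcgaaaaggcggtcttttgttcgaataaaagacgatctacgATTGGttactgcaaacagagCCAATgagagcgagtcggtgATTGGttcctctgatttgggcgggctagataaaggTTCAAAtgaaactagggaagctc
Kif11 (chr19:37376132-37376381, plus strand): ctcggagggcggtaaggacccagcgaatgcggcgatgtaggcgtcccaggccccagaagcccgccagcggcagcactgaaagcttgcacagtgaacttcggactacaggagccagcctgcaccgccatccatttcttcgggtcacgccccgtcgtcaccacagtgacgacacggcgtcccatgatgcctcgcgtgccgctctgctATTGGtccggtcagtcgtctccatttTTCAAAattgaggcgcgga
Ccnb2 (chr9:70421555-70421804, minus strand): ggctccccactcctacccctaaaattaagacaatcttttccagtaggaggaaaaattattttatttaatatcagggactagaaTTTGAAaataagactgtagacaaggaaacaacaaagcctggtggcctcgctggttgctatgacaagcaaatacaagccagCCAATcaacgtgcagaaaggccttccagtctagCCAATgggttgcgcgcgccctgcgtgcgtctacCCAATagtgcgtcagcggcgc
Each of these 4 windows holds both motifs. Not every mitotic promoter does: the window of Prc1, another of the largest rises, holds CCAAT and neither TTTGAA nor TTTAAA. Promoters were listed for 32 of the 37 tested mitosis genes, and 24 of these (75%) held CCAAT, against 34.5% of all 27025 promoters in the table and 36.1% of those of tested genes. TTTGAA or TTTAAA was found in 14 (43.8%), against 25.5% of all and 20.4% of tested promoters, and both motifs in 13 (40.6%), against 9.0% and 7.56%. Of 23 listed promoters among the 27 tested DNA replication genes, 15 (65.2%) held CCAAT and 5 (21.7%) held an E2F site written as TTTCCCGC, TTTGGCGC, TTTCGCGC or TTTGCCGC, against 1.91% of all promoters, 3.08% of those of tested genes and 1 of the 32 mitosis promoters. A match is a description of the letters and not evidence of binding.

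Mitotic genes were at their sham level on day 1 and rose by day 3. Mki67 read 5.51, 5.63, 5.47 and 5.60 on day 1 and 8.89, 12.30, 11.92 and 11.77 on day 3. Its difference was 5.67 ± 0.70 (SE, adjusted p = 0.037) with 8 arrays and 6.42 ± 0.15 (adjusted p = 1.31e-05) with 6. The groups were far apart, with array 31 between them. Kif11 read 4.81, 4.75, 4.69 and 4.84 on day 1 against 6.81, 9.50, 9.34 and 9.32, a difference of 3.97 ± 0.57 with 8 arrays and 4.59 ± 0.08 with 6. Top2a read 5.30 to 5.53 on day 1 and 7.51, 9.93, 9.89 and 9.82 on day 3, a difference of 3.89 ± 0.53 with 8 arrays. In both genes the day 3 values other than that of array 31 lay close together and far above day 1.

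Of the 37 tested mitosis and spindle genes, 21 rose and 0 fell with 8 arrays, and 36 rose and 0 fell with 6, against 14.5% of all tested genes that rose with 6. The median difference was 1.85 with 8 arrays and 2.18 with 6, where the median of all tested genes was 0.01. Tpx2, which builds spindle microtubules (3.33 ± 0.54 with 8 arrays), Ccna2, the cyclin of S phase and mitotic entry (3.32 ± 0.56), Anln, which shapes the cleavage furrow (3.15 ± 0.56), Hmmr (3.05 ± 0.49) and the midzone protein Prc1 (2.98 ± 0.51) were among the rises. The securin Pttg1 was the member not called with 6 arrays, with a difference of 0.15. The mitotic cyclin Ccnb2 read 4.65 to 4.77 on day 1 and 5.63, 8.48, 8.33 and 7.92 on day 3. Its difference of 2.88 with 8 arrays missed the threshold (adjusted p = 0.0641), and 3.53 ± 0.15 with 6 arrays passed. The mean over the list was 4.97 to 5.07 on day 1, 5.91 on array 31 and 7.40 to 7.56 on the other day 3 arrays, beside 5.0 to 5.07 in sham and 6.48 to 6.67 on day 7. In bulk tissue, more cells in division and more of these transcripts per cell cannot be told apart.

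DNA replication genes moved the same way with smaller differences. Of 27 tested members, 5 rose with 8 arrays and 24 with 6, and 0 fell in either. Rrm2, a subunit of the enzyme that makes deoxynucleotides, read 4.83, 4.75, 4.88 and 4.86 on day 1 and 5.44, 6.62, 6.53 and 6.63 on day 3, a difference of 1.48 ± 0.26 with 8 arrays. Its large partner Rrm1 read 7.65, 7.88, 7.07 and 8.08 on day 1 and 8.5, 10.74, 10.79 and 10.69 on day 3, which passed with 6 arrays (2.87 ± 0.13) but not with 8 (adjusted p = 0.0736). The thymidylate synthase Tyms (1.29 with 8 arrays) and the DNA ligase Lig1 (0.57) rose in both, and the replicative helicase subunits Mcm5 (1.54 ± 0.10) and Mcm2 (0.96 ± 0.10) rose with 6. The mitotic kinase Cdk1 rose by at least 1.58 with 6 arrays, its day 1 values being no higher than the negative controls. Among the 15 tested G1 cyclins and cyclin-dependent kinase inhibitors 8 rose and 1 fell with 6 arrays, and the faller was Cdkn1a, which encodes the inhibitor p21 (−1.17 ± 0.26, adjusted p = 0.0222), whose call was lost without array 11, 32 or 34. Over all 3 cell division lists, 68 of 79 tested genes rose with 6 arrays and 1 fell.

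**Figure D3:**
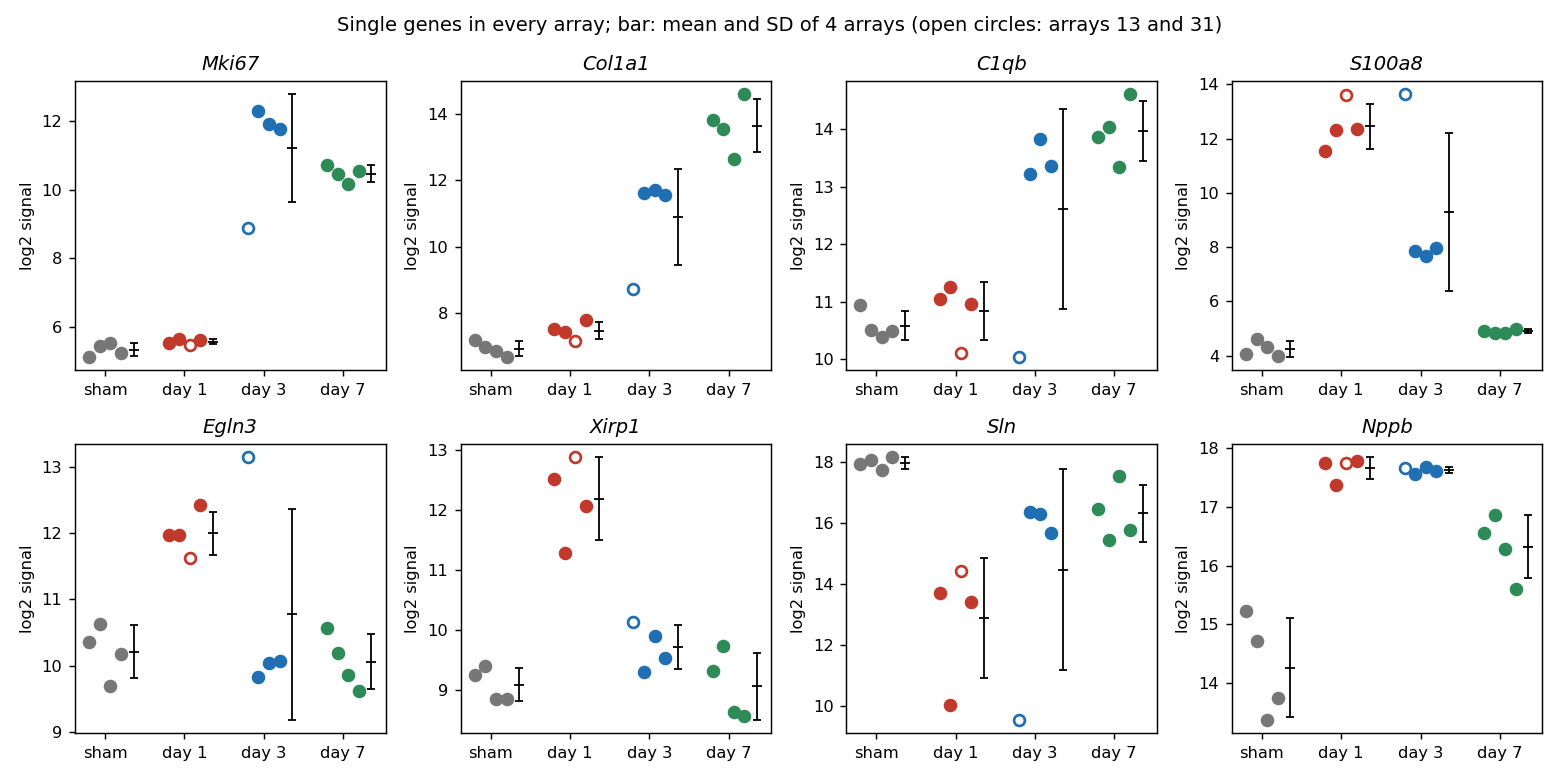
Log2 signal of 8 genes on every sham, day 1, day 3 and day 7 array, with a bar at the group mean and the SD over 4 arrays. Mki67, Col1a1 and C1qb are higher and S100a8 and Egln3 lower on day 3 arrays 32 to 34 than on day 1, array 31 lies towards day 1 for most of them, and Nppb lies between 17.37 and 17.78 on all 8.

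Fibrillar collagen was the other leading rise. Col3a1 read 9.02, 9.10, 8.66 and 10.00 on day 1 and 11.33, 13.74, 13.69 and 13.42 on day 3, a difference of 3.85 ± 0.58 (adjusted p = 0.037) with 8 arrays and 4.25 ± 0.27 with 6. Col1a1, the main chain of type I collagen, read 7.51, 7.43, 7.14 and 7.78 against 8.73, 11.60, 11.72 and 11.55. That gap missed the threshold with 8 arrays (3.44 ± 0.65, adjusted p = 0.054) and passed with 6 (4.05 ± 0.12, adjusted p = 1.53e-05), although all 4 day 3 values exceeded all 4 day 1 values. Its partner Col1a2 did the same, at 4.10 ± 0.16 with 6 arrays. Col8a1, a short-chain collagen of vessel walls, read 5.53 to 5.92 on day 1 and 6.79, 8.86, 8.97 and 8.98 on day 3, a difference of 2.65 ± 0.48 with 8 arrays. Of 18 tested collagen genes, 3 rose with 8 arrays and 14 with 6, with 0 falls, and all 18 differences were above 0. The mean over the list was 6.15 to 6.50 on day 1, near the 5.96 to 6.23 of sham, and 8.01 to 8.09 on arrays 32 to 34. It was higher still on day 7, at 8.41 to 9.22.

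Enzymes that process and cross-link collagen rose with it. Of 16 tested, 2 rose with 8 arrays and 14 with 6, with 0 falls. Bmp1, the procollagen C-proteinase, read 7.01, 7.07, 6.75 and 7.07 on day 1 and 7.73, 8.07, 8.03 and 8.05 on day 3, a difference of 0.99 ± 0.12 with 8 arrays. The prolyl hydroxylase subunit P4ha3 rose by at least 0.52 with 6 arrays from day 1 values at the negative controls. Lox, which cross-links collagen and elastin, read 10.05, 8.90, 10.29 and 9.85 on day 1 and 10.22, 12.15, 12.29 and 12.37 on day 3, so it passed only with 6 arrays (2.66 ± 0.30), and array 31 lay inside the day 1 range. The collagen chaperone Serpinh1 rose by 1.28 ± 0.19 with 6 arrays.

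Matricellular proteins, which sit in the matrix and signal to cells, were divided. Postn, made by activated fibroblasts, read 13.48, 12.76, 13.47 and 13.47 on day 1 and 13.37, 17.17, 17.48 and 17.17 on day 3. It rose by 4.04 ± 0.21 (adjusted p = 0.000182) with 6 arrays and did not pass with 8 (3.00 ± 0.88, adjusted p = 0.159), array 31 lying among the day 1 values. Tenascin C, encoded by Tnc, read 8.68 to 9.55 on day 1 and 9.84, 11.83, 12.11 and 12.31 on day 3 and rose by 3.11 ± 0.18 with 6 arrays. Thbs1, the thrombospondin of the early wound, went the other way and fell by 1.81 with 6 arrays (SE 0.50, adjusted p = 0.0419), a call lost without array 11, 12, 32 or 33. Of the 21 tested members, 2 rose with 8 arrays, which were Ccn5 (1.18) and Ltbp2 (0.79), and 10 rose and 1 fell with 6. The fibronectin gene Fn1 rose by 1.47 ± 0.36 with 6 arrays, a call lost when any of them but array 12 was left out.

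Small proteoglycans and elastic fibre genes rose in 14 of 17 tested members with 6 arrays, with 0 falls. With 8 arrays only the elastic fibre component Emilin1 passed (0.53). Aspn, a proteoglycan that binds collagen, read 9.78, 10.03, 7.61 and 9.87 on day 1 and 9.44, 13.75, 13.31 and 13.08 on day 3, a difference of 3.49 ± 0.18 with 6 arrays. The microfibril gene Mfap5 (2.04 ± 0.34), lumican or Lum (1.71 ± 0.23) and elastin or Eln (1.02 ± 0.16) were other members that rose. Over the 4 matrix lists together, 8 of 72 tested genes rose with 8 arrays and 52 with 6, and 1 fell.

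Proteases and their inhibitors moved in both directions, 8 up and 6 down of 24 with 6 arrays, and the falls were 2 without array 32. Mmp14, a membrane-bound collagenase, read 7.52, 7.32, 7.40 and 7.70 on day 1 and 8.86, 8.96, 8.82 and 8.86 on day 3, a difference of 1.39 ± 0.12 (adjusted p = 0.0161) with 8 arrays and 1.37 ± 0.12 with 6. Array 31 lay with its group for this gene. Adamts12 also rose in both (0.77 and 0.85), and Mmp8, the collagenase stored in neutrophils, fell by 3.00 with 6 arrays (SE 0.21).

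Fibroblast genes rose with 6 arrays only. Of 14 tested genes of resting fibroblasts 10 rose and 0 fell, among them dermatopontin or Dpt (1.75), Mgp, an inhibitor of calcification (1.66), and the transcription factor Tcf21 (1.08), whose call was lost without array 11, 32 or 33. Of 16 myofibroblast and contractile genes 8 rose and 0 fell, or 4 without array 11, led by Myl9 (2.37), whose call was lost without array 11, 33 or 34. The smooth muscle actin gene Acta2, the usual label of myofibroblasts, read 13.73, 13.67, 11.91 and 14.33 on day 1 and 11.43, 14.24, 14.14 and 14.65 on day 3 and did not pass (0.43 ± 0.22 with 6 arrays, adjusted p = 0.191). Among 28 profibrotic signals 10 rose with 6 arrays (6 without array 33) and 0 fell. Those with the largest differences were the Wnt modulator Sfrp1 (2.82), the secreted glycoprotein Fstl1 (2.68) and the transcription factor Meox1 (2.60), and the growth factor Ptn rose by at least 1.06. The growth factor Tgfb1 itself read 6.36 to 6.56 on day 1 and 6.54 to 6.61 on day 3 (0.14 ± 0.07 with 6 arrays, adjusted p = 0.186).

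Genes of the epicardial and mesothelial covering were higher on day 3 arrays 32 to 34 in 14 of 16 tested members, with 0 lower, and in 6 when array 11 was left out as well. With 8 arrays 0 passed, and 4 had an unadjusted p under 0.05. The uroplakin Upk1b read 7.69, 6.06, 10.77 and 8.99 on day 1 and 6.32, 10.89, 9.71 and 9.74 on day 3, a difference of 2.54 ± 0.74 with 6 arrays (adjusted p = 0.0484). Array 13 lay among the day 3 values and array 31 among the day 1 values, and the call with 6 arrays was lost without array 11, 12, 32, 33 or 34. Upk3b (2.02 ± 0.36), the retinoic acid enzyme Aldh1a1 (2.29) and Gpm6a (1.95 ± 0.34) also rose with 6 arrays, and 0 of these 3 calls were lost when 1 more array was left out. In sham the list averaged 6.30 to 6.62, above the 5.45 to 6.15 of day 1 arrays 11, 12 and 14 and below the 6.81 to 7.45 of arrays 32 to 34. How much of the atrial surface each sample held is not known, and its part was not tested.

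Neutrophil genes were lower on day 3 arrays 32 to 34 than on day 1. With 6 arrays 14 of 19 tested markers fell and 0 rose, against 11.8% of all tested genes that fell. With 8 arrays Lcn2, which encodes the iron-withholding protein lipocalin 2, was the member called. It read 10.15, 10.98, 10.82 and 10.40 on day 1 and 8.78, 8.29, 8.49 and 8.49 on day 3, and fell by 2.08 (SE 0.22, adjusted p = 0.0299). On array 31 Lcn2 lay below every day 1 value, as did every gene called lower with 8 arrays, unlike the mean of the neutrophil list. S100a8, a subunit of the calprotectin that fills neutrophil cytoplasm, read 11.56, 12.30, 13.60 and 12.34 on day 1 and 13.64, 7.87, 7.67 and 7.96 on day 3. It fell by 4.24 with 6 arrays (SE 0.23, adjusted p = 0.000185), and with 8 arrays the difference was −3.17 ± 1.33 (adjusted p = 0.334), array 31 having the highest value of all. Retnlg, a resistin-like gene of neutrophils, read 12.43, 11.63, 15.25 and 12.12 on day 1 and 10.30, 5.81, 5.41 and 5.44 on day 3 and fell by 6.51 with 6 arrays (SE 0.22). The decoy receptor Il1r2 (−4.83 ± 0.32), the granulocyte growth factor receptor Csf3r (−2.55) and the chemokine receptor Cxcr2 (−2.15) also fell. The list averaged 8.41 to 9.54 on day 1, 8.75 on array 31 and 6.00 to 6.36 on arrays 32 to 34, beside 4.49 to 4.72 in sham and 4.85 to 5.06 on day 7. Arrays 32 to 34 thus lay between day 1 and sham while array 31 lay within the day 1 range, and fewer neutrophils and less RNA of these genes per cell cannot be told apart.

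**Figure D4:**
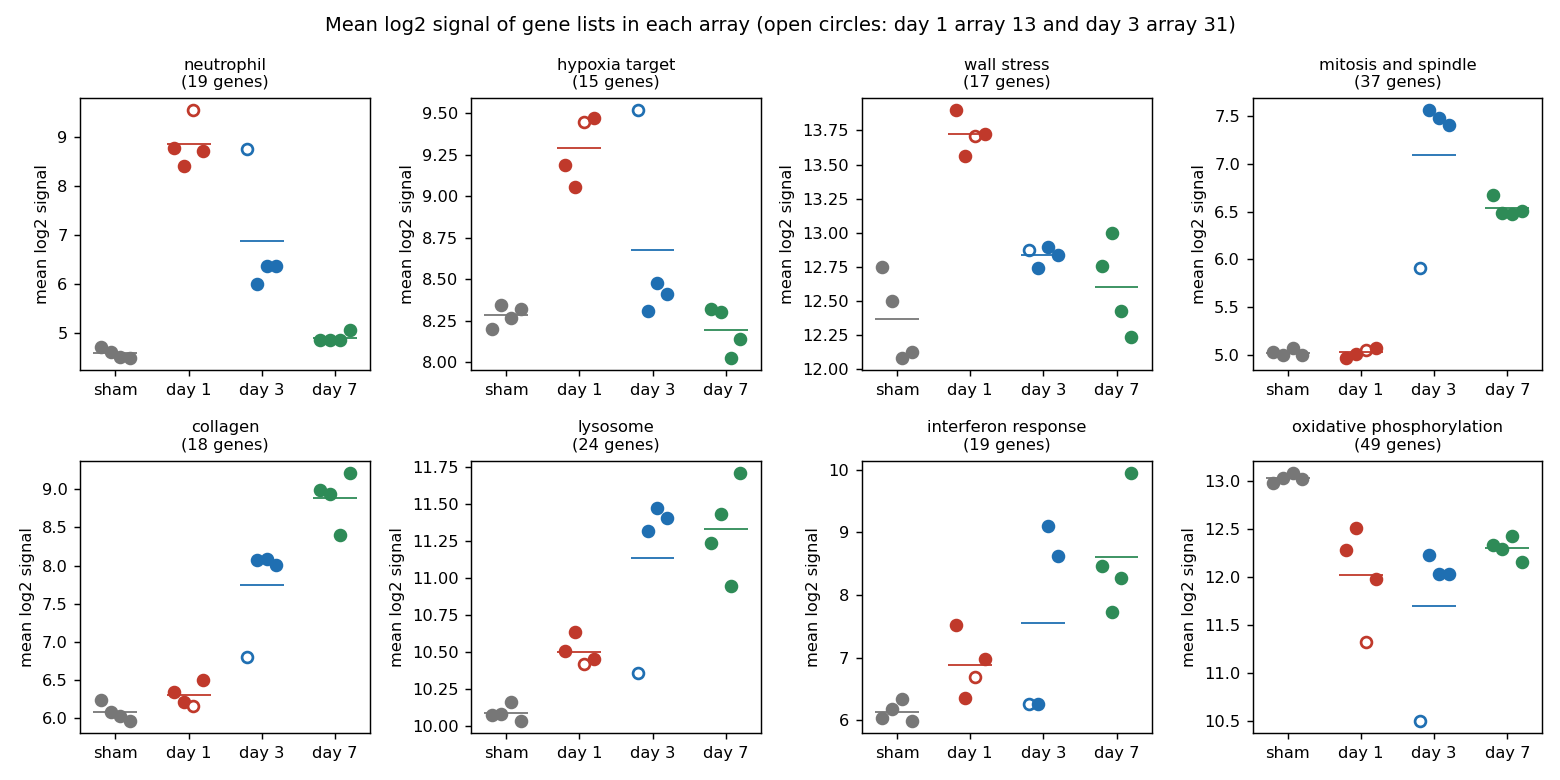
Mean log2 signal of 8 gene lists on every sham, day 1, day 3 and day 7 array, with a line at the group mean and open circles for arrays 13 and 31. Array 31 lies at the day 1 level for the neutrophil, hypoxia and lysosome lists, the mitosis and collagen lists rise from sham-like day 1 values, and the day 3 interferon values split into 6.25 to 6.26 and 8.61 to 9.10.

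Chemokines that attract neutrophils fell. Cxcl3 read 8.43, 8.19, 8.24 and 8.84 on day 1 and 7.42, 5.62, 5.67 and 6.10 on day 3. It fell by 2.23 with 8 arrays (SE 0.40) and fell by 2.69 with 6. Cxcl2 read 10.06, 8.92, 10.02 and 10.66 against 9.95, 5.63, 6.02 and 7.06 and fell by 3.65 with 6 arrays (SE 0.53). Cxcl5 (−1.18 ± 0.17) and Cxcl1 (−0.92 ± 0.17) fell with 6 arrays as well, the latter not without array 11 or 33. Over the 21 tested chemokines 6 fell and 2 rose with 6 arrays, and the falls ranged from 4 without array 11 to 8 without array 14. The risers were the monocyte attractant Ccl8 (1.75 ± 0.31) and Cxcl16 (1.36). The main monocyte chemokine Ccl2 was not called, with a difference of −0.43, and Ccl7 read 7.99 to 9.43 on day 1 and 8.61 to 10.33 on day 3.

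Among 17 tested cytokines and receptors, 5 fell and 1 rose with 6 arrays. Il1rn read 7.82, 7.42, 8.06 and 8.59 on day 1 and 6.77, 5.88, 6.19 and 6.46 on day 3 and fell in both (1.65 with 8 arrays, SE 0.28, adjusted p = 0.0459). Its groups did not overlap, which was a condition for its place among the largest falls. Interleukin 1 beta itself was not called, with a difference of −2.47 ± 0.81 for Il1b with 6 arrays (adjusted p = 0.0687), and Il6 read 5.94 to 7.37 on day 1 and 5.54 to 6.86 on day 3.

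Macrophage genes moved the opposite way from neutrophil genes. With 6 arrays 11 of 20 general macrophage markers rose and 1 fell, and with 8 arrays only Mpeg1, a pore-forming protein of macrophages, passed. It read 9.33, 9.40, 9.46 and 9.55 on day 1 and 10.38, 11.20, 11.93 and 11.61 on day 3, a difference of 1.84 ± 0.32 (adjusted p = 0.0465) with 8 arrays and 2.15 ± 0.19 with 6. Lysozyme, encoded by Lyz2, read 14.84 to 15.87 on day 1 and 15.54, 17.74, 16.81 and 17.45 on day 3 and rose by 2.3 ± 0.24 with 6 arrays. Adgre1, the F4/80 antigen (2.14), Cd68 (1.81) and Csf1r, the receptor for the macrophage growth factor (1.36), rose too. The fungal receptor Clec7a was the member that fell (−1.67).

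Resident macrophage genes mostly rose, and monocyte genes gave calls in both directions. C1qb, a chain of the complement recognition molecule made by macrophages, read 11.05, 11.26, 10.12 and 10.96 on day 1 and 10.04, 13.23, 13.82 and 13.35 on day 3. The rise was 2.38 ± 0.18 with 6 arrays and the difference did not pass with 8 (1.77, adjusted p = 0.373), array 31 lying below all day 1 values. Of 17 resident macrophage genes 10 rose with 6 arrays (6 without array 11) and 1 fell. Folr2, the folate receptor of resident macrophages, rose by 1.74 ± 0.13, and Igf1 by 1.66, while the hyaluronan receptor Lyve1 fell by 1.30 (SE 0.28), a call lost without array 11 or 12. The members with the highest mean, Mrc1 and F13a1, were not called. With 6 arrays their differences were 0.72 ± 0.29 (adjusted p = 0.114) and −0.28 ± 0.25 (adjusted p = 0.437). Among 16 monocyte and recruited macrophage genes 6 fell and 1 rose with 6 arrays, with 4 rises without array 32 and 0 without array 11. Their median difference was 0.08, and 9 of the 16 differences were above 0. Arg1, an arginase induced in wound macrophages, read 13.45, 13.76, 15.15 and 12.87 on day 1 and 14.56, 11.65, 11.68 and 11.37 on day 3 and fell by 1.8 with 6 arrays (SE 0.23). The chemokine receptor Ccr1 (−1.49) and the integrin Itgam (−1.29) fell beside it, and both are also carried by neutrophils.

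Lipid handling, lysosomes and complement rose with 6 arrays. Ms4a7 (2.67 ± 0.19), the lipid carrier Apoe (2.00) and Gpnmb (1.92) were among 8 of 16 lipid-handling macrophage genes that rose, with 1 fall, and Trem2, a lipid receptor of macrophages, rose by at least 0.77. Of 24 tested lysosome genes 19 rose and 1 fell, with 13 to 18 rises when 1 of the 6 arrays was left out. Hexa, a hexosaminidase, read 8.55, 8.88, 8.25 and 8.39 on day 1 and 9.20, 10.70, 10.66 and 10.53 on day 3, a difference of 2.02 ± 0.15. All 4 day 3 values of Hexa exceeded those of day 1. In the complement list 9 of 13 rose and 1 fell, with C1qc at 2.10, the receptor gene C3ar1 at 1.85 and the shield Cd55 at 1.65. Of 6 genes of class II antigen presentation 4 rose, among them H2-Ab1 (1.30) and H2-Aa (1.10).

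**Figure D5:**
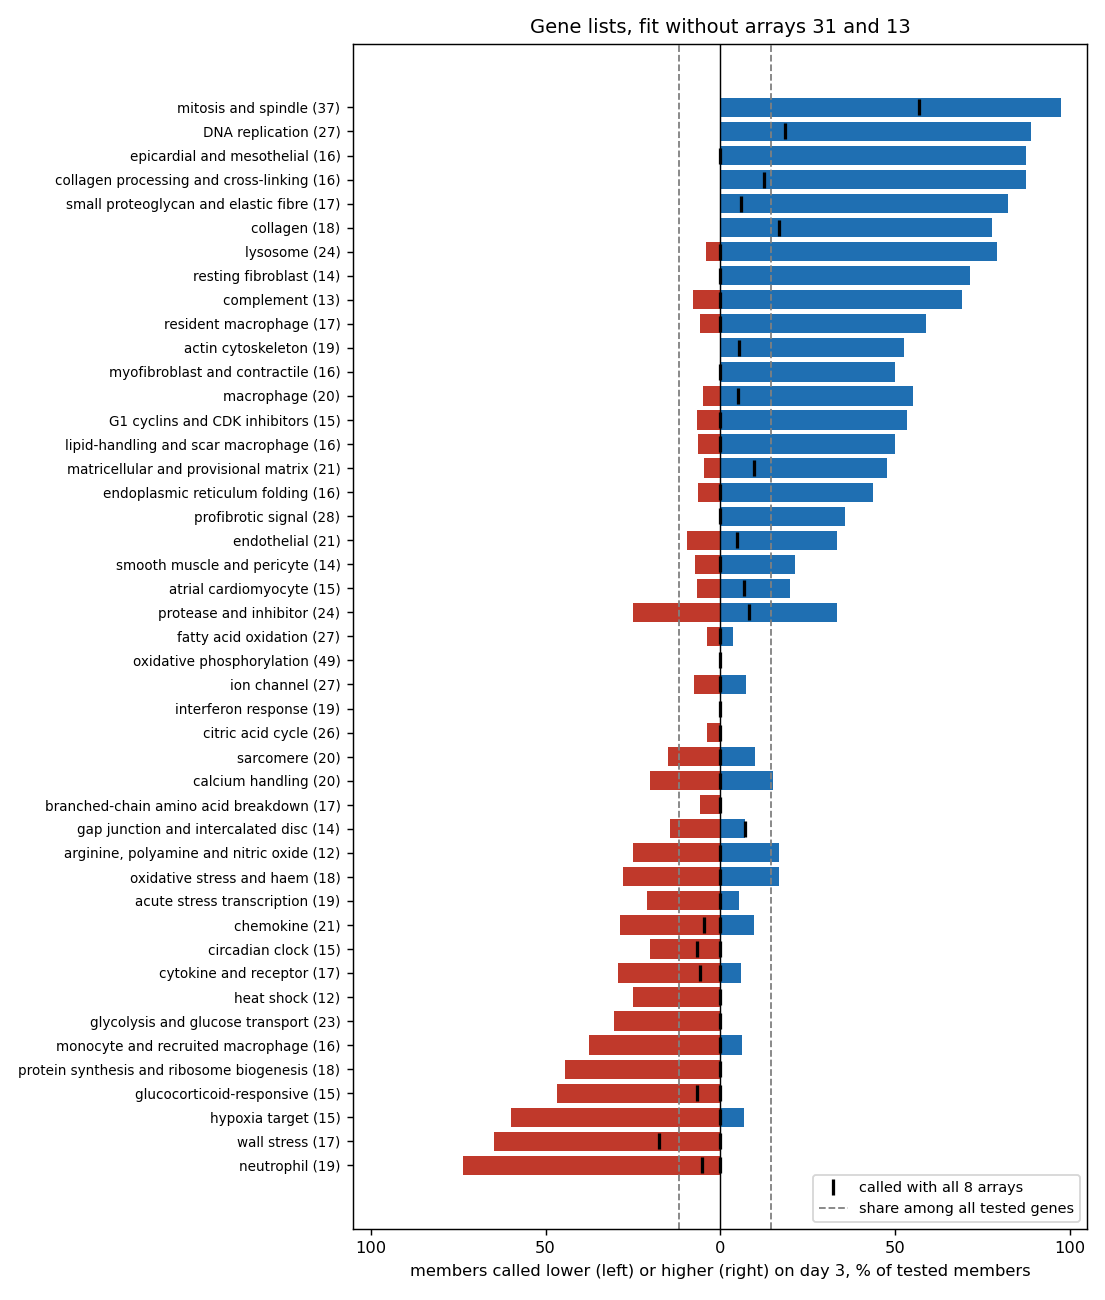
Share of tested members called lower (left) or higher (right) on day 3 with 6 arrays for each gene list, in percent, with black ticks for the share called with 8 arrays and dashed lines for the share of all tested genes, 11.8% lower and 14.5% higher. Cell division, collagen, proteoglycan, lysosome and mesothelial lists reach far to the right, and the neutrophil, wall stress and hypoxia lists far to the left.

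Averaged over their list, interferon-stimulated genes separated the day 3 arrays from one another more than they separated the days. Of 19 tested members 0 passed in limma's test with 8 arrays and 0 with 6, where 0 and 1 had an unadjusted p under 0.05, although all 19 differences were above 0. Ifit1, an interferon-induced sensor of foreign RNA, read 8.75, 6.94, 7.76 and 8.49 on day 1 and 6.29, 6.11, 11.99 and 10.56 on day 3. Usp18, which damps interferon signalling, read 8.25, 6.43, 6.77 and 7.29 against 6.15, 6.12, 11.00 and 10.29, and Rsad2 read 9.59, 7.47, 8.11 and 9.04 against 7.64, 7.38, 10.74 and 10.56. In these 3 genes arrays 31 and 32 lay below every day 1 value or beside the lowest, and arrays 33 and 34 lay above every day 1 value. Not every member was split this way. Gbp2 read 9.07, 8.16, 8.07 and 8.53 on day 1 and 6.96, 8.80, 10.78 and 10.00 on day 3, with array 32 inside the day 1 range. Array 32 had the highest control separation of the 8 and array 31 the lowest. The part of signal quality in this split was not tested. Without array 32 as well, 16 of the 19 genes passed as higher. The list averaged 6.36 to 7.52 on day 1, 6.25 to 6.26 on arrays 31 and 32 and 8.61 to 9.10 on arrays 33 and 34. It averaged 7.73 to 9.94 on day 7 and 6.00 to 6.34 in sham.

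Hypoxia targets fell with 6 arrays in 9 of 15 tested members and rose in 1. Egln3, the oxygen sensor induced by hypoxia-inducible factor, read 11.97, 11.97, 11.63 and 12.42 on day 1 and 13.15, 9.83, 10.05 and 10.07 on day 3. It fell by 2.14 with 6 arrays (SE 0.16) and did not pass with 8 (adjusted p = 0.531), since array 31 held the highest value. The vasodilator Adm (−2.13 ± 0.25), the glucose transporter Slc2a1 (−2.09 ± 0.26) and Vegfa, the vascular growth factor (−1.03), fell likewise, and the prolyl hydroxylase P4ha1 rose (0.82), a call lost when any array but 14 was left out. Lactate dehydrogenase, encoded by Ldha, read 10.38 to 10.53 on all 8 arrays. In the wider list of glycolysis and glucose transport 7 of 23 fell with 6 arrays and 0 rose, including hexokinase Hk2 (−1.14) and Pfkfb3 (−1.07). With arrays 31 and 13 left out, the hypoxia list averaged 9.06 to 9.47 on day 1 and 8.31 to 8.48 on day 3, near the 8.20 to 8.34 of sham.

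Genes known to respond to stretch of the heart wall fell, and the mean over their list on array 31 lay with its group. With 8 arrays 3 of 17 tested members fell and with 6 arrays 11, with 0 rises. Ankrd2, a stretch-induced ankyrin repeat protein of muscle, read 7.70, 6.83, 7.41 and 7.62 on day 1 and 5.42, 5.03, 5.02 and 5.0 on day 3, and fell by 2.27 (SE 0.20, adjusted p = 0.0161) with 8 arrays. Xirp1, an actin-binding repair protein of the intercalated disc, read 12.52, 11.28, 12.89 and 12.07 against 10.13, 9.29, 9.89 and 9.53 and fell by 2.48 (SE 0.36). Fhl1 was the other member called with both (−0.77). Flnc, the filamin of muscle, fell by 2.07 (SE 0.38) and Lmcd1 by 2.94 (SE 0.54) with 6 arrays. Outside the list, Klhl41, which stabilises the thin filament protein nebulin, read 12.86, 12.30, 13.52 and 12.37 on day 1 and 10.30, 9.95, 9.90 and 9.97 on day 3. It fell by 2.73 (SE 0.28, adjusted p = 0.0299), more than any other of the 45 with 8 arrays. With 6 arrays it fell by 2.57, less than Cxcl3 and Hsp25-ps1, a pseudogene of Hspb1 (−2.87). Nrap, which anchors actin during myofibril assembly, fell by 1.09 (SE 0.16) with 8 arrays. The mean over the wall stress list was 13.56 to 13.90 on day 1 and 12.75 to 12.89 on day 3, array 31 included.

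The peptide hormone of wall stress was not called. Nppb, which encodes B-type natriuretic peptide, read 17.74, 17.37, 17.73 and 17.78 on day 1 and 17.65, 17.55, 17.67 and 17.61 on day 3, a difference of −0.04 ± 0.11 with 8 arrays (adjusted p = 0.919), while its sham mean was 14.27. Nppa and Ankrd1 lay on the ceiling of every array, and no difference can be read from them. The housekeeping gene Actb read 16.14 to 16.60 on day 1 and 16.29 to 16.48 on day 3 (0.01 ± 0.12), and Gapdh lay on a plateau at about 19.35, which hides any change.

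Other stress programmes were called in part. Among 15 glucocorticoid-responsive genes 7 fell with 6 arrays (2 without array 11) and 0 rose, led by Zbtb16 (−2.20 ± 0.42) and including Fkbp5, a chaperone gene long used as a reporter of glucocorticoids (−0.92 ± 0.22). The first lost its call without array 11 and the second without any of the 6 but array 14. Lcn2 and Cdkn1a stand on that list as well as on the neutrophil and G1 lists. The clock gene Nr1d1, which encodes the repressor REV-ERB alpha, fell in both (−0.87 and −0.89, the latter not without array 11), while the clock output gene Dbp read 5.72 to 6.93 on day 1 and 5.81 to 6.86 on day 3. Of 18 oxidative stress and haem genes 5 fell (27.8%) and 3 rose (16.7%) with 6 arrays, with 2 falls without array 11. Of all tested genes, 11.8% fell and 14.5% rose. The cystine importer Slc7a11 fell by 1.87 (SE 0.17) and glutathione peroxidase Gpx1 rose by 1.30 (SE 0.09). Among 16 folding genes of the endoplasmic reticulum 7 rose and 1 fell with 6 arrays, with 4 rises without array 11 and 7 falls without array 12. Hmox1, the haem-degrading oxygenase, read 10.64 to 12.29 on day 1 and 11.01 to 11.65 on day 3, well above its sham mean of 5.68 on both days. Prg4, a lubricating proteoglycan, read 16.70, 15.91, 17.36 and 17.08 on day 1 and 16.72, 12.59, 12.54 and 13.42 on day 3 and fell by 3.71 with 6 arrays (SE 0.36). Hbegf, a ligand of the epidermal growth factor receptor, fell by 2.62 (SE 0.42) with 6 arrays.

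Some genes of ribosome assembly fell. In the list of protein synthesis and ribosome biogenesis 8 of 18 members fell with 6 arrays and 0 rose (3 falls without array 33), among them Wdr43 (−0.83) and nucleolin or Ncl (−0.60). The calls of Wdr43 and Ncl were lost without array 33, and that of Wdr43 also without 32. With 8 arrays 0 of the list passed, with 9 at an unadjusted p under 0.05, yet 7 other nucleolar or ribosome assembly genes stood among the 45 falls. These 7 were picked out after their values were seen. The nucleolar helicase Ddx21 read 12.17, 11.73, 12.48 and 12.00 on day 1 and 11.24, 10.78, 10.92 and 11.04 on day 3, and fell by 1.10 (SE 0.20) with 8 arrays. Rrp12 (−1.0 ± 0.13), Mybbp1a (−0.86 ± 0.13), Nop14 (−0.84 ± 0.13), Ftsj3 (−0.79 ± 0.14), Wdr12 (−0.45 ± 0.08) and Pwp2 (−0.44 ± 0.08) were the others. The mean of the 7 was 8.47 to 8.75 on day 1 and 7.80 to 7.86 on all 4 day 3 arrays, against a sham mean of 7.34. Uck2 (−1.25 ± 0.22) and Ctps (−1.16 ± 0.13), enzymes of pyrimidine supply, fell as well with 8 arrays.

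The heart muscle genes themselves gave calls in both directions. With 6 arrays, of 20 sarcomere genes 2 rose (10%) and 3 fell (15%), and of 20 calcium handling genes 3 rose (15%) and 4 fell (20%). Of 27 ion channel genes 2 rose and 2 fell (7.41% each). Of all tested genes, 14.5% rose and 11.8% fell with 6 arrays. With 8 arrays 0 were called in these 3 lists. In limma's test 1, 5 and 1 of their members had an unadjusted p under 0.05 with 8 arrays, and 6, 11 and 8 with 6. Without array 11 as well, the falls were 1 among calcium handling and 0 among ion channel genes, and without array 32 the rises were 1 among calcium handling and 1 among sarcomere genes. Sln, the atrial inhibitor of the sarcoplasmic calcium pump, read 13.70, 10.01, 14.40 and 13.41 on day 1 and 9.54, 16.35, 16.27 and 15.67 on day 3. It rose by 3.73 ± 0.95 with 6 arrays (adjusted p = 0.033) and not with 8 (1.58 ± 1.69, adjusted p = 0.781). Array 31 lay lowest of all 8 and array 12 next to it. Kcnj3, a subunit of the atrial acetylcholine-gated potassium channel, read 8.53, 8.89, 6.77 and 8.68 on day 1 and 5.5, 10.59, 10.78 and 10.29 on day 3 and rose by 1.85 ± 0.16 with 6 arrays. Mybphl, a myosin-binding protein of atrial muscle (3.19), and Mybpc3, its relative in all heart muscle (1.54), also rose with 6 arrays, and Hrc, a calcium-binding protein of the sarcoplasmic reticulum, fell (−1.16). The calcium pump Atp2a2 was called lower with 6 arrays. Its day 1 values of 19.82, 19.82, 19.71 and 19.82 followed the ceiling of each array, so the size of that fall cannot be read. The calls of Sln and Hrc were lost without array 32, 33 or 34, those of Mybphl and Mybpc3 without 32 or 33, and those of Hrc and Atp2a2 without 11. Gja5, the connexin of atrial junctions, rose in both (0.65 and 0.69).

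Energy metabolism genes gave few calls. Of 49 oxidative phosphorylation genes 0 passed in limma's test with either set of arrays, where 1 with 8 arrays and 5 with 6 had an unadjusted p under 0.05, with a median difference of −0.29 with 8 arrays and −0.15 with 6. Without array 14 as well, 9 of them were called lower. The list averaged 11.33 to 12.51 on day 1 and 10.51 to 12.23 on day 3, both below the 12.98 to 13.09 of sham, with array 31 lowest. In the citric acid cycle 1 of 26 genes fell with 6 arrays, in fatty acid oxidation 1 of 27 rose and 1 fell, and in breakdown of branched-chain amino acids 1 of 17 fell. Without array 14 these falls were 7, 5 and 6.

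Vessel genes were higher in part. Of 21 endothelial genes 7 rose and 2 fell with 6 arrays, with 3 rises without array 32 and the falls were 0 without array 11 and 4 without array 12. Aplnr, the apelin receptor of growing vessels, rose in both (1.2 and 1.43), and Plvap, a diaphragm protein of leaky vessels (1.5 ± 0.24), the adhesion molecule Vcam1 (1.51 ± 0.37) and the angiopoietin receptor Tek (0.78) rose with 6 arrays. Selp, the adhesion molecule that first slows leukocytes, read 9.34, 6.65, 10.02 and 9.41 on day 1 and 6.92, 6.20, 5.77 and 5.98 on day 3 and fell by 2.48 with 6 arrays (SE 0.73, adjusted p = 0.0488). Flt1 fell as well (−0.52). The calls of Selp, Vcam1 and Flt1 were lost without array 11, 32 or 33, those of Selp and Vcam1 also without 34, that of Selp also without 14, and that of Tek without 11. Smooth muscle and pericyte genes gave 3 rises (21.4%) and 1 fall (7.14%) among 14 with 6 arrays, with 0 rises without array 11. Of all tested genes, 14.5% rose and 11.8% fell with 6 arrays.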

How the data were processed

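RNA of atrial tissue was hybridised to single-colour arrays. The table the authors deposited gives a log2 signal for each of 72688 rows on every array. Per the submitters' processing notes it was made with Affymetrix Expression Console; how background and scale were set is not stated there, so log2 differences were not turned into folds. The labels name a Mouse Genome array made of probe sets, whereas the rows are transcript clusters, which leaves the array design uncertain. Column medians ran from 4.17 to 4.61.

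Rows with 1 symbol (30604) gave 30141 genes; 2146 rows had several symbols and 33206 none. The row with the highest mean stood for a gene with several rows. Testing required 4 or more of the 8 arrays above their own median, and limma 3.58.1 (R 4.3.3; lmFit, eBayes with trend) gave differences, SE and p-values, adjusted over 17546 genes. Every adjusted p is from limma. A group wholly at or below the median negative control gave a bound, written "at least". The script was tested on simulated data. Members, lists and rules were chosen with earlier results of these data known. Genes picked by rule were the 12 largest rises and 12 largest falls called with 8 and with 6 arrays whose values do not overlap, passing over predicted symbols. For each list the rule picked 3 called members by size of difference, or 2 by mean where none was called. Nppa, Nppb, Actb and Gapdh were always picked. Not every gene picked by rule is printed in the text. All other genes were chosen after their values were seen.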

Additional observations from a re-analysis of the deposited data

Results flagged for a closer look

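Among 118 sets of 4 values (list means and 2 quality measures in each group), 31 had a sample whose gap to the nearest of the others, over the range of the 4, passed Dixon's critical value for 4 values; chance gives about 1 in 20. Array 31 was the sample in 28 of the 31, array 13 in 2 and array 12 in 1.

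On array 31 control separation was 0.743 and the median correlation with its group 0.954. Inflammatory, stress and hypoxia lists stood apart there. The neutrophil list read 8.75 against 6.00 to 6.36 on the other day 3 arrays, hypoxia targets 9.52 against 8.31 to 8.48, and arginine, polyamine and nitric oxide genes 7.5 against 7.26 to 7.27. The macrophage list read 9.37, oxidative stress and haem genes 10.37, heat shock genes 10.92, folding genes of the endoplasmic reticulum 10.84 and lysosome genes 10.36, each below the other day 3 arrays.

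Growth and matrix lists were low on array 31 against the other day 3 arrays, with DNA replication at 5.99, mitosis and spindle at 5.91, G1 cyclins and inhibitors at 6.83, collagen at 6.80, small proteoglycans and elastic fibre at 8.37, profibrotic signals at 6.58, resting fibroblast genes at 8.25, myofibroblast genes at 8.82 and actin cytoskeleton genes at 9.995. Muscle and energy lists were low as well, with atrial cardiomyocyte genes at 9.555, ion channels at 6.01, calcium handling at 9.47, sarcomere at 13.15, gap junction and intercalated disc genes at 8.96, oxidative phosphorylation at 10.51, the citric acid cycle at 11.68, fatty acid oxidation at 10.56 and branched-chain amino acid breakdown at 7.69.

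Array 13 was low for clock genes, at 6.51 against 6.80 to 6.82 on the other day 1 arrays, and for Schwann cell and nerve genes, at 4.39 against 4.72 to 4.79. Array 12 was low for atrial cardiomyocyte genes, at 10.36 against 11.07 to 11.16.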

How the results depend on the processing

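With 8 arrays, 232 genes were called as reported. The number was 144 at an absolute log2 difference of at least 1, 1448 with all 16 arrays in 1 model, 6440 with limma's array weights, 7 without the filter on low values and 4603 without arrays 31 and 13. Leaving out 1 array gave 0 to 4024. The 4603 calls with 6 arrays became 1086 at that difference and 3019 under a stricter filter, which tested 9163 genes, and 2014 to 4820 when 1 more array was left out. The other alternatives stayed within 1.5 times. The 269 genes followed through the alternatives were picked by rule or after their values were seen, and not all are printed in the text. Of those called with 8 arrays 0 changed sign in any alternative run, and 41 of the 269 changed sign in one while called in neither. Of the followed genes called with 8 arrays, 48 lost the call without array 12 and 53 without any other array but 31. Of the 190 followed genes called with 6 arrays, 147 kept the call whichever further array was left out, and 0 changed sign. Because of how these genes were chosen, that rate does not carry over to all calls. Of all 4603 calls, 1973 were kept without array 33 and 2277 without array 11. The alternatives for the 6-array test were chosen after seeing the data. No paired analysis was run, because the labels give no pairing between the separate samples of the days. Values at the array's ceiling or at the negative controls carry no size, and 4 arrays per group, with 2 of low control separation, limit the precision.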

Other observations

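These families were picked out after their values were seen. Of the 187 genes higher on day 3 with 8 arrays, 44 (23.5%) were copies of 5S ribosomal RNA, near-identical sequences whose rows cannot be taken as separate genes. Of 63 tested copies 53 were higher with 6 arrays and 0 lower. They averaged 11.26 to 11.78 on day 1 and 13.37, 12.70, 12.58 and 12.59 on day 3, beside 10.89 in sham and 11.84 on day 7. Array 31 was the highest of the day 3 arrays here. A further 26 of the 187 carried predicted or RIKEN symbols, which left 117. The replication-dependent histones Hist1h2aj (4.14 ± 0.55 with 8 arrays) and H2ac10 (3.93 ± 0.51) are near-identical copies too, so the row that gained the signal is uncertain.

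Of the 2066 genes lower with 6 arrays, 271 (13.1%) were vomeronasal receptors, olfactory receptors or microRNAs of the Mir466, Mir467 and Mir669 families, and 45.4% of the 597 tested members were called lower. The 95 vomeronasal type 1 receptors averaged 6.19, 6.17, 7.24 and 6.74 on day 1 and 7.91, 5.55, 5.36 and 5.67 on day 3, with sham at 5.28 to 5.45. These genes are known for sensory neurons of the nose. The arrays with the highest receptor means, 31 and 13, had the lowest control separation. The part of signal quality in the other 1795 falls was not tested.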
